A study of Mus musculus with 8 samples.

Results

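The Crumbs and Par polarity complexes were followed in the developing mouse retina through 10 genes, namely *Crb1*, *Crb2*, *Crb3*, *Mpp3*, *Mpp4*, *Mpp5*, *Inadl*, *Pard3*, *Pard6b*, and *Prkci*. These were the 10 of 21827 genes in the expression tables whose symbol is on that list, chosen by name, with earlier results of these data known. RNA was sequenced from 8 samples of ICR mice (slc:ICR), with 1 library for each, so no value below can be set against a replicate error. The 1 test was of the fraction over the 6 sorted libraries, with the 3 ages as blocks. E15 and E18 were whole retinas at embryonic day 15 and 18. Retinas at postnatal days 2, 5, and 8 were sorted by flow cytometry for the surface enzyme Cd73 (gene *Nt5e*), which marks rod precursors and rods, into a Cd73-positive fraction (Cd73PC) and a Cd73-negative fraction (Cd73NC). Retinas of several pups were pooled for a sort, Cd73NC is a mixture of all retinal cells without Cd73, and the labels name no genetic change or treatment for any sample.

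Crumbs proteins are transmembrane proteins of the apical surface of epithelial cells. Their short tail inside the cell binds scaffold proteins of the MAGUK family, chiefly Pals1 (gene *Mpp5*), which in turn holds the PDZ-domain protein Patj (gene *Inadl*). The Par complex, made of the scaffold Par3 (*Pard3*), the adaptor Par6 (*Pard6b*), and the atypical protein kinase C iota (*Prkci*), works beside it to set up the apical domain. In the retina both complexes sit just apical to the adherens junctions of the outer limiting membrane, where photoreceptors and Müller glia meet, and mutations of *CRB1* cause retinal dystrophies in humans.

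Levels are given as FPKM, which the authors obtained with Cufflinks and which takes account of how long a transcript is and how many fragments a library had, so that levels of different genes may be set side by side. The bounds beside some values are the confidence limits that Cufflinks gave, and they describe the estimate within 1 library, not the variation between animals. Ratios are log2 of FPKM + 1, and a gene was counted as higher or lower where the ratio was past 1.5-fold. The added 1 makes a change of a weakly expressed gene look smaller than it is. In bulk RNA of this kind, fewer cells that express a gene and less RNA per cell cannot be told apart.

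The sort was checked first. *Nt5e* was at 97.3, 131, and 124 FPKM in Cd73PC on the 3 sorting days, and at 2.43, 31.4, and 9.38 FPKM in Cd73NC. The summed level of 8 rod markers, all of them detected, in Cd73NC was 3.94%, 15.7%, and 8.34% of that in Cd73PC with age. Cd73NC at P5 therefore held the most rod RNA of the 3 negative fractions by this measure, and counts over the 3 ages are given with and without P5. The depth of the 8 libraries relative to E18 ranged from 0.965 to 1.62, and the number of genes at 1 FPKM or more from 11152 to 12413.

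Promoter sequences are shown for *Mpp4*, *Crb2*, and *Pard6b*, because these were the members higher in Cd73PC than in Cd73NC at all 3 ages. Each window holds the 250 bases before an annotated start of the gene, from RefSeq on GRCm38.p6, a different build from the mm9 coordinates of the expression tables, read 5′ to 3′ on the strand of the gene. Capitals mark matches to TAATCC, the core bound by the photoreceptor factors Crx and Otx2, or to TGCTGAC, a short element bound by the rod factor Nrl, searched on both strands. The windows lie at chr1:59163390-59163639 (minus strand) and chr1:59161637-59161886 (minus strand) for the first and the second start of *Mpp4*, at chr2:37775999-37776248 (plus strand) for *Crb2*, and at chr2:168080754-168081003 (plus strand) for *Pard6b*.
Mpp4 window 1: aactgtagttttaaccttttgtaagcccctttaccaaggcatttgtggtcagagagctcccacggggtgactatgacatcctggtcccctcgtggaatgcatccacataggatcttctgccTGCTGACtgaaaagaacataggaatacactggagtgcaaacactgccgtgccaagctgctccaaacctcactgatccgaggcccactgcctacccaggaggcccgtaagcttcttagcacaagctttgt
Mpp4 window 2: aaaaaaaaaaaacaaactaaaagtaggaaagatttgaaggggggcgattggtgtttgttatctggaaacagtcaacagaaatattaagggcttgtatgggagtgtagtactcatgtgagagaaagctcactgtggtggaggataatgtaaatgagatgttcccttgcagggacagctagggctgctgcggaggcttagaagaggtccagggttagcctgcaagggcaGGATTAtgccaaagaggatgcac
Crb2: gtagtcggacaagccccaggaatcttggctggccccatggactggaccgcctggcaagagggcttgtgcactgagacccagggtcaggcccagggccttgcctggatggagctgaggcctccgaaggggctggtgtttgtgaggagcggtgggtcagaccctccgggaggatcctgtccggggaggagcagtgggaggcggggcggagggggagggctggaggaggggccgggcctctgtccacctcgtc
Pard6b: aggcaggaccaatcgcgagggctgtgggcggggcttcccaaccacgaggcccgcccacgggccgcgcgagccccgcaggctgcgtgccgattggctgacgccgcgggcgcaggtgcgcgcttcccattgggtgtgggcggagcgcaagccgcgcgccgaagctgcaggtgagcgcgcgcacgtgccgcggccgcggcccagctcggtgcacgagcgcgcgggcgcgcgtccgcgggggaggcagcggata

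The first *Mpp4* window held TGCTGAC, beginning 129 bases before the start, and the second held GGATTA, the reverse complement of TAATCC, beginning 23 bases before the start. In the 13 windows that RefSeq gave for 8 of the 10 members, these were the only matches, so that *Mpp4* was the 1 member with a match. Of 32851 windows of the same length over the genome, 6.25% held TAATCC and 3.81% held TGCTGAC on either strand. These matches describe the letters and are not evidence of binding. The windows also differed in base composition, with a GC content of 51.2% and 44.8% in the *Mpp4* windows, 68.8% in *Crb2*, and 77.6% in *Pard6b*.

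*Crb1* and *Crb2* supplied nearly all Crumbs mRNA, and both ended at their highest level in Cd73PC at P8. *Crb1* (mm9 chr1:141094831-141273653, minus strand), the Crumbs gene mutated in human retinal dystrophy, was at 15.0 FPKM in E15 and 20.7 FPKM in E18. Cd73NC held 25.9, 32.8, and 21.1 FPKM at P2, P5, and P8. Cd73PC held 20.4, 33.0, and 56.8 FPKM at the same ages. The fractions were therefore close at P5, where the bounds overlapped, and apart at P8, where Cd73PC was 2.62-fold higher on FPKM + 1 (log2 ratio 1.39). At P2 the log2 ratio was -0.33, short of 1.5-fold, with bounds that did not overlap.

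*Crb2* (chr2:37631769-37654623, plus strand), the paralog that acts with *Crb1* at the outer limiting membrane, was at 21.7 FPKM in E15 and 12.8 FPKM in E18. The level in Cd73PC was 13.0, 22.5, and 29.3 FPKM at P2, P5, and P8. The level in Cd73NC was 7.68, 6.57, and 3.06 FPKM. The 2 fractions thus moved apart with age, and the excess of Cd73PC was 1.61-fold, 3.10-fold, and 7.45-fold in the order of the ages. The level in Cd73PC at P5 could not be told from that in E15 by the bounds, nor Cd73PC at P2 from E18. The *Crb2* row shares 114 bases with *Dennd1a* on the opposite strand, and the methods name no step that marks strand, so that reads of the 2 genes cannot be told apart there. *Dennd1a* had log2 ratios of -0.81, -0.63, and -0.51 between the fractions, the opposite direction to *Crb2*.

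*Crb3* (chr17:57201700-57205337, plus strand), the short Crumbs of most epithelia, never reached 1 FPKM. Its FPKM values were whole multiples of the value of 1 read, within 0.005 of a read, which gave the reads behind them. It had 0 reads in E15, where 3 reads would be 0.216 FPKM, and 7 reads in E18. In Cd73NC it had 5, 3, and 10 reads and in Cd73PC 13, 6, and 4 reads at P2, P5, and P8. As a ratio, Cd73PC over Cd73NC, the P2 libraries gave 2.04 with an exact 95% interval of 0.682 to 7.31. Those of P5 gave 2.06 (0.440 to 12.7) and those of P8 gave 0.476 (0.109 to 1.65). A difference of *Crb3* between the fractions was not detectable at this depth. Intervals of read counts cover counting error only, since reads made by PCR are not independent molecules.

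Within the family, *Crb1* held 40.8% of the summed Crumbs FPKM in E15 and 61.0% in E18. Its share was 76.5%, 82.9%, and 85.7% in Cd73NC at P2, P5, and P8, against 60.1%, 59.1%, and 65.8% in Cd73PC. Nearly all of the rest was *Crb2*, so that *Crb2* took a larger part of Crumbs mRNA in Cd73PC than in Cd73NC at each age. The summed level was 86.3 FPKM in Cd73PC and 24.6 FPKM in Cd73NC at P8, while at P2 it was 34.0 and 33.9 FPKM.

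**Figure D1:**
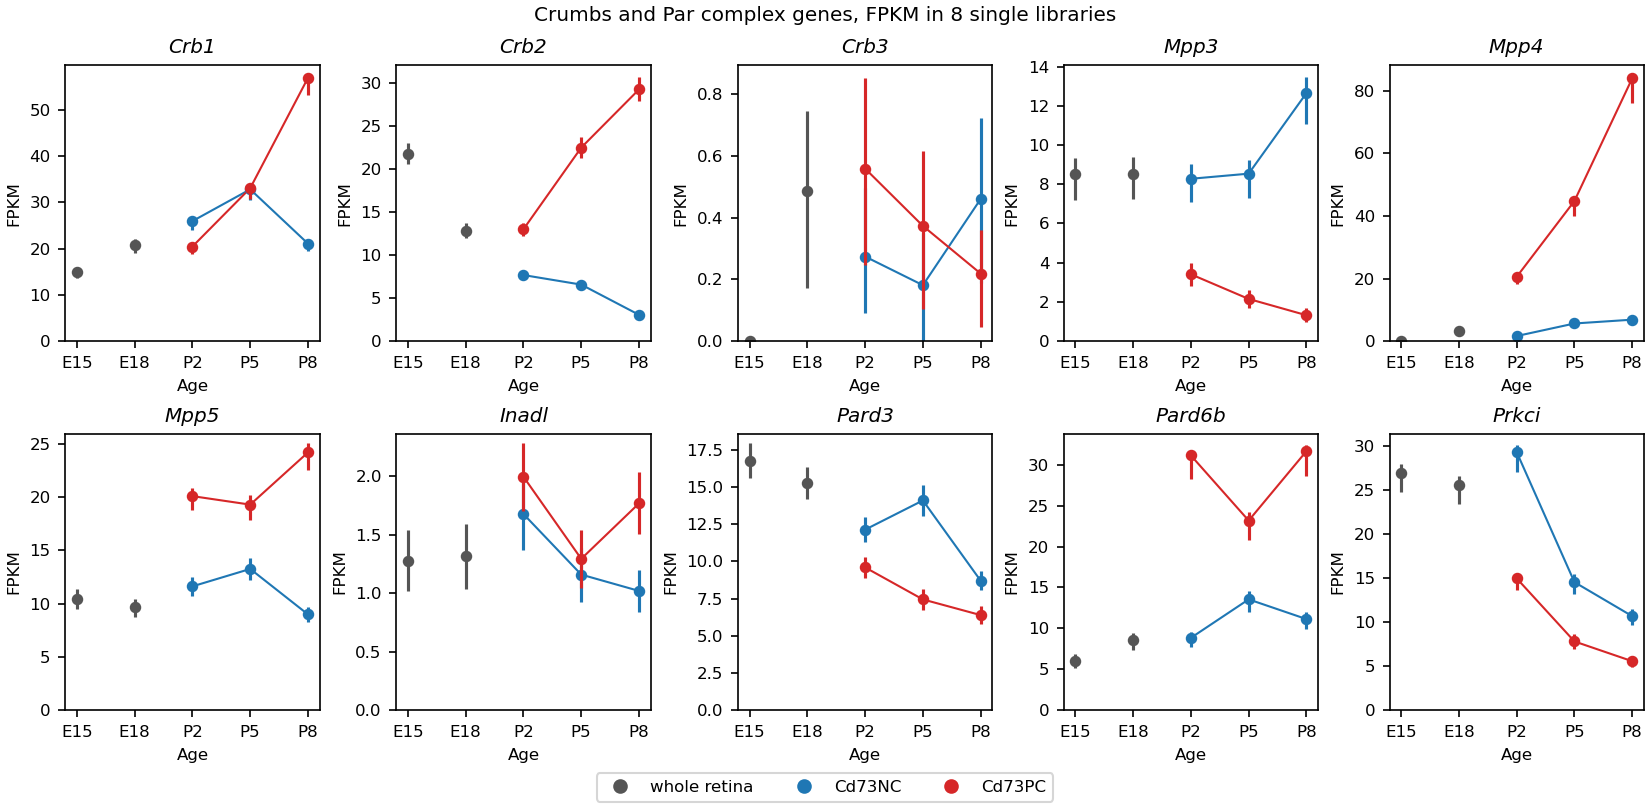
FPKM (vertical axis, linear, with its own scale for each gene) of the 10 members against age in 8 single libraries, with whole retina in grey, Cd73NC in blue, and Cd73PC in red. Vertical bars are the Cufflinks bounds of each library. *Mpp4* reaches 83.9 FPKM in Cd73PC at P8, *Mpp3* is at 1.32 FPKM in the same library, and the *Crb1* lines meet at P5 and lie apart at P8.

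The 3 MAGUK scaffolds followed different courses, with *Mpp4* and *Mpp5* higher in Cd73PC and *Mpp3* higher in Cd73NC. *Mpp4* (chr1:59177779-59220233, minus strand), known from photoreceptors and their synapse, was at 0.128 FPKM in E15 and 3.31 FPKM in E18. In Cd73PC it was at 20.5, 44.8, and 83.9 FPKM at P2, P5, and P8, the last just above its own upper bound of 83.0. Cd73NC held 1.64, 5.65, and 6.86 FPKM. Every Cd73PC library lay above every other library, and the excess over Cd73NC was 8.17-fold, 6.89-fold, and 10.8-fold on FPKM + 1. The span from the lowest to the highest library was 75.3-fold, the widest of the 10 members. In Cd73NC *Mpp4* was higher at P5 than at P2 (log2 ratio 1.33), and the rod markers were too, at a summed 153 FPKM at P2 and 1243 FPKM at P5, and their part in this value was not tested.

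*Mpp3* (chr11:101860967-101888269, minus strand), a scaffold of the same family found at the outer limiting membrane, was at 8.53 FPKM in E15 and 8.54 FPKM in E18. Cd73NC stayed near those levels at P2 and P5, with 8.28 and 8.54 FPKM, and had 12.6 FPKM at P8. Cd73PC had 3.41, 2.15, and 1.32 FPKM. Its 3 Cd73PC libraries were the lowest of the 8. Whole reads were recovered for this gene, 419, 392, and 762 in Cd73NC against 220, 96, and 67 in Cd73PC. Cd73PC over Cd73NC, this gave ratios of 0.412 (exact 95% interval 0.348 to 0.486), 0.252 (0.200 to 0.316), and 0.105 (0.0802 to 0.134) with age, and the intervals did not overlap.

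*Mpp5* (chr12:79849934-79941700, plus strand), which encodes Pals1, was at 10.5 FPKM in E15 and 9.67 FPKM in E18. In Cd73NC it was at 11.6, 13.3, and 8.98 FPKM and in Cd73PC at 20.1, 19.3, and 24.2 FPKM. Cd73PC was higher at each age with bounds apart, past 1.5-fold at P2 (1.67-fold) and P8 (2.52-fold) and short of it at P5 (1.42-fold). *Inadl* (chr4:98062517-98386294, plus strand), which encodes Patj, stayed between 1.02 and 2.00 FPKM in the 8 libraries. Its log2 ratios between the fractions were 0.16, 0.09, and 0.46, none past 1.5-fold, and the bounds of the fractions overlapped at P2 and P5 but not at P8. In its order of levels over the 8 libraries the bounds of all 7 neighbouring pairs overlapped. The P8 ratio of this weakly expressed gene depended on the scale, and passed 1.5-fold with a pseudocount of 0 (0.80) and under quantile normalization (1.03).

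The make-up of the 3 *Mpp* genes differed between the fractions. *Mpp4* held 46.6%, 67.6%, and 76.7% of their summed FPKM in Cd73PC at P2, P5, and P8, and 7.60%, 20.6%, and 24.1% in Cd73NC. *Mpp3* held 7.74%, 3.25%, and 1.21% in Cd73PC and 38.4%, 31.1%, and 44.4% in Cd73NC. In E15 *Mpp4* held 0.670%, with *Mpp3* and *Mpp5* sharing the rest. *Mpp4* was thus the leading scaffold of the 3 in each Cd73PC library, narrowly at P2 where *Mpp5* held 45.6%, and in none of the others.

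**Figure D2:**
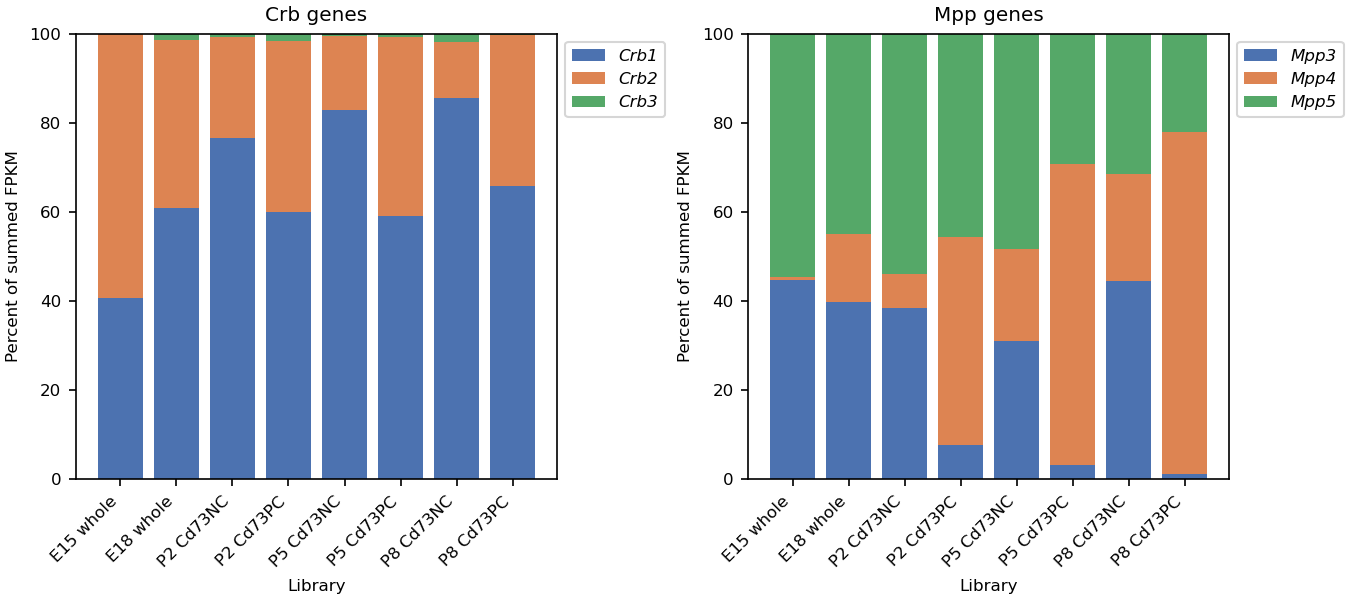
Percent of the summed FPKM of *Crb1*, *Crb2*, and *Crb3* (left) and of *Mpp3*, *Mpp4*, and *Mpp5* (right) held by each gene in the 8 libraries, with bars stacked to 100. *Mpp4* goes from 0.670% in E15 to 76.7% in Cd73PC at P8, and the *Crb2* part is larger in Cd73PC than in Cd73NC at each age.

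The Par genes did not move together. *Pard6b* (chr2:167906504-167926703, plus strand), the adaptor that binds Cdc42 and the kinase, was at 5.98 FPKM in E15 and 8.53 FPKM in E18. In Cd73NC it was at 8.83, 13.5, and 11.1 FPKM and in Cd73PC at 31.2, 23.2, and 31.7 FPKM. The Cd73PC libraries were the 3 highest, 3.27-fold, 1.66-fold, and 2.69-fold above Cd73NC.

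*Prkci* (chr3:30894693-30951662, plus strand), the kinase of the complex, was at 27.0 FPKM in E15, 25.6 FPKM in E18, and 29.3 FPKM in Cd73NC at P2. The bounds of E15 overlapped with those of E18 and of Cd73NC at P2, and the last 2 were apart. Later Cd73NC libraries had 14.5 FPKM at P5 and 10.7 FPKM at P8. Those of Cd73PC had 15.0, 7.79, and 5.55 FPKM. Both fractions were lower at each later age, with Cd73PC about as far under Cd73NC each time. The whole reads were 2391, 1075, and 1036 in Cd73NC and 1556, 560, and 453 in Cd73PC. Their ratios were 0.510 (exact 95% interval 0.479 to 0.544), 0.536 (0.483 to 0.595), and 0.520 (0.465 to 0.581), and their intervals overlapped. The 10 progenitor and cell cycle markers were also lower in Cd73PC, at summed levels of 524, 211, and 166 FPKM against 2048, 877, and 1305 FPKM in Cd73NC, with none at 0 in a sorted library, and their part in the *Prkci* values was not tested.

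*Pard3* (chr8:129587956-130136186, plus strand), the scaffold, was at 16.8 FPKM in E15, its highest level, and 15.3 FPKM in E18. In Cd73NC it was at 12.1, 14.1, and 8.70 FPKM and in Cd73PC at 9.59, 7.44, and 6.39 FPKM. Cd73PC was lower at each age, past 1.5-fold at P5 alone (log2 ratio -0.84), with -0.31 at P2 and -0.39 at P8. The scaffold and the kinase of the Par complex thus had lower values in Cd73PC than in Cd73NC at each age, and *Pard6b* had higher ones. For *Pard3* this depended on the scale, with log2 ratios of -0.19, -0.59, and -0.07 at P2, P5, and P8 under quantile normalization.

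Set side by side, the P2 fractions had 4 members higher and 2 lower in Cd73PC, the P5 fractions 3 and 3, and the P8 fractions 5 and 2. Over all genes the shares past 1.5-fold were 8.56% higher and 14.4% lower for P2, 7.02% and 15.5% for P5, and 7.54% and 18.6% for P8. Over genes at 1 FPKM or more in either library, as 9 of the 10 members were, they were 14.5% and 25.0%, 12.3% and 27.0%, and 13.0% and 31.3%. The higher members were above that background at each age, and the lower ones were near it or under it. The median log2 ratio of the 10 members was 0.23, 0.15, and 0.90 at P2, P5, and P8, against -0.14, -0.18, and -0.23 over all genes at 1 FPKM or more.

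At all 3 ages *Crb2*, *Mpp4*, and *Pard6b* were higher in Cd73PC and *Mpp3* and *Prkci* were lower. The share of all genes that did so was 3.51% higher and 7.83% lower, or 5.85% and 13.1% of genes at 1 FPKM or more in a sorted fraction. Without P5 the members were 4 higher, with *Mpp5* added, and the same 2 lower. Under quantile normalization *Prkci* no longer passed 1.5-fold at P5 (log2 ratio -0.58) or P8 (-0.48), which left *Mpp3* as the 1 member lower at all 3 ages. It also put *Mpp5* past 1.5-fold at P5 (0.66), so that 4 members were higher at all 3 ages, and *Inadl* at P8, so that 6 were higher there. That scaling also changed the split of calls over all genes, from 1531 higher and 3392 lower to 2268 and 2367 at P5, and from 1644 and 4051 to 2669 and 2758 at P8.

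The difference between the fractions was then tested with limma on log2(FPKM + 1), over the 6 sorted libraries with age as a block, a test chosen after the values were seen. It takes the difference to be the same at each age, and reads any change of the difference with age as error. Each gene leaves 2 residual degrees of freedom, and limma drew its error toward a trend with level over all genes tested. The SE and p below rest on that moderated error, not on the gene's own spread over the ages alone. Of 13056 genes at 1 FPKM or more in a sorted library, 8.9% were higher and 19.2% lower in Cd73PC at an adjusted p (Benjamini-Hochberg) under 0.05. Of the 9 members tested, 4 were higher and 2 lower. *Mpp4* was higher by 3.08 ± 0.17 (log2, SE) in limma, with an adjusted p of 0.00281. *Crb2* (1.74 ± 0.41, adjusted p = 0.0314), *Pard6b* (1.29 ± 0.22, 0.0122), and *Mpp5* (0.86 ± 0.20, 0.0286) were higher in the same limma fit. Each of these 4 was higher at 3 of 3 ages.

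On the other side, limma gave *Mpp3* as lower, at -1.74 ± 0.30 (adjusted p = 0.0136), and *Prkci*, at -0.86 ± 0.13 (0.0101), each lower at 3 of 3 ages. The limma test was not passed by *Pard3* (-0.51 ± 0.17, adjusted p = 0.0753), *Crb1* (0.36 ± 0.34, 0.460), or *Inadl* (0.24 ± 0.20, 0.402). *Pard3* was lower and *Inadl* higher at 3 of 3 ages. For *Crb1* the log2 ratio went from -0.33 at P2 through 0.01 at P5 to 1.39 at P8. The same fit without P5 called only *Mpp4* of the members, and over all genes the calls went from 1162 higher and 2505 lower to 179 and 110. Without P2 or without P8 it called the same members except *Mpp5*, 3 higher and 2 lower.

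**Figure D3:**
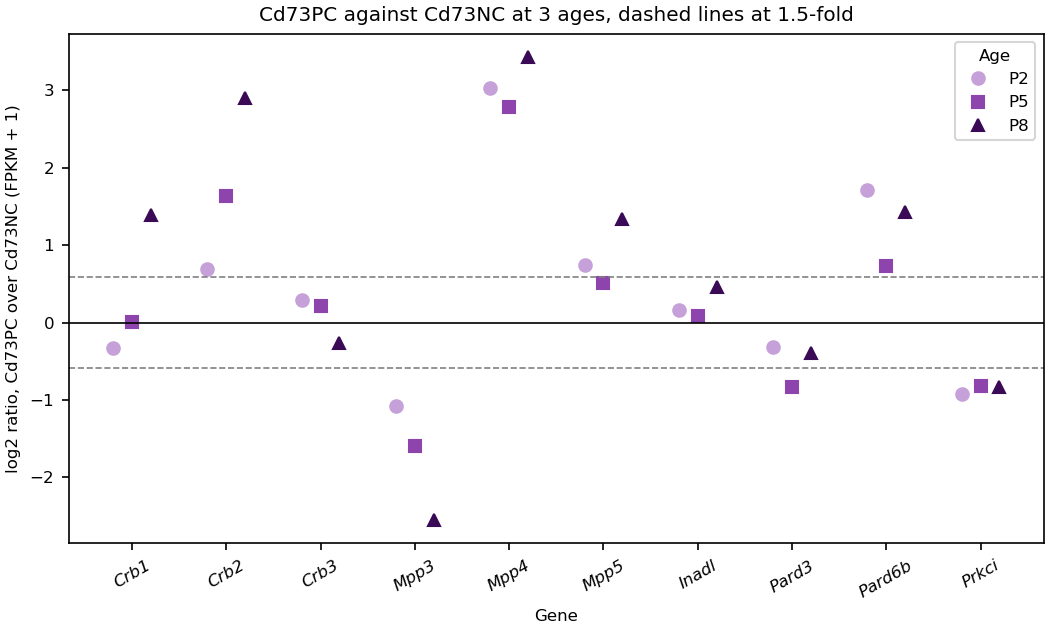
Log2 ratio of FPKM + 1, Cd73PC over Cd73NC (vertical axis), for the 10 members, with circles for P2, squares for P5, and triangles for P8, from 1 library per fraction and age. Dashed lines stand at 1.5-fold. *Mpp4*, *Crb2*, and *Pard6b* lie above the upper line at all 3 ages, *Mpp3* and *Prkci* under the lower line, and *Crb1* passes the upper line at P8 alone.

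Between stages, the comparisons share libraries and are given as separate values. From E15 to E18, *Mpp4* was higher (log2 ratio 1.93) and *Crb2* lower (-0.72), where 4.61% of all genes were higher and 2.09% lower, or 7.6% and 3.47% of those at 1 FPKM or more in either library. From E18 to Cd73PC at P2, *Mpp4* (2.32), *Pard6b* (1.75), and *Mpp5* (0.98) were higher and *Mpp3* (-1.11), *Prkci* (-0.74), and *Pard3* (-0.62) lower. All genes were 8.78% higher and 18.3% lower there, and those at 1 FPKM or more 14.7% and 30.2%. From E18 to Cd73NC at P2, no member was higher, and *Mpp4* (-0.71) and *Crb2* (-0.67) were lower, against 3.2% and 8.2% of all genes and 5.47% and 13.3% of those at 1 FPKM or more. In both of these comparisons sorted cells were set against whole retina, so age and cell composition cannot be told apart.

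Within Cd73PC from P2 to P5, *Mpp4* (1.09), *Crb2* (0.75), and *Crb1* (0.67) were higher and *Prkci* (-0.86) lower, where 3.36% of all genes were higher and 8.57% lower, or 5.92% and 15.2% of those at 1 FPKM or more. From P5 to P8, *Mpp4* (0.89) and *Crb1* (0.76) were higher again and no member was lower, against 3.31% and 4.78% of all genes and 5.94% and 8.54% of those at 1 FPKM or more. *Mpp4* and *Crb1* were thus higher at each step in Cd73PC, *Crb2* had a ratio of 0.36 at the second, and *Pard6b*, *Mpp5*, and *Inadl* stayed within 1.5-fold at both. Within Cd73NC, *Mpp4* was higher (1.33) and *Prkci* lower (-0.96) at P5 than at P2, against 7.93% and 9.51% of all genes and 13.1% and 16.3% of those at 1 FPKM or more. From P5 to P8, *Crb2* (-0.90), *Pard3* (-0.64), and *Crb1* (-0.61) were lower and no member was higher, against 8.47% and 7.78% of all genes and 14.1% and 13.2% of those at 1 FPKM or more. Over this last step *Crb1* was higher in Cd73PC and lower in Cd73NC, each past 1.5-fold, and 0.0825% of all genes, 18 of 21814, did the same.

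For the 8 members whose highest library was at least 2-fold above the lowest on FPKM + 1, the genes with the most similar course over the 8 libraries were listed, by the root mean square difference of log2(FPKM + 1) after each gene was centred on its own mean. For *Mpp4* these were *Fabp12* (difference 0.38), *Llgl2* (0.39), and *Gm16119* (0.40). For *Crb2* they were *Whrn* (0.36), *Thrb* (0.36), and *Adcy6* (0.37), and for *Crb1* *Mbnl2* (0.16), *Acadvl* (0.20), and *Gla* (0.20). *Pard6b* was nearest to *Serinc3* (0.13), *Flcn* (0.16), and *Clstn1* (0.17), and *Mpp5* to *Tmtc3* (0.094), *Eif1a* (0.12), and *Itsn2* (0.13). Among the members lower in Cd73PC, *Mpp3* was nearest to *Gsto1* (0.12), *Fscn1* (0.16), and *Ephb6* (0.16), *Prkci* to *Cyb5* (0.074), *Rnaseh2b* (0.090), and *Lrrc8c* (0.11), and *Pard3* to *Cpne1* (0.088), *Wasf2* (0.094), and *Hmbox1* (0.099). The members with the widest span, *Mpp4* and *Crb2*, had the largest differences from their nearest genes. This ranking describes levels in 8 libraries that share their cell mixtures.

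Other genes of the polarity machinery were read from a list of 32 partners, which holds other Par6 and atypical kinase genes, the small GTPases and the exchange factor that act on them, the Scribble, Dlg, and Lgl genes of the basolateral side, and further scaffolds and adaptors. Of these, 6 were higher and 10 lower in Cd73PC in the P2 libraries, 5 and 15 in those of P5, and 7 and 11 in those of P8, with median log2 ratios of -0.32, -0.52, and -0.36. Over all genes at 1 FPKM or more the medians were -0.14, -0.18, and -0.23. The shares of such genes were 14.5% higher and 25.0% lower for P2. For P5 they were 12.3% and 27.0%, and for P8 13.0% and 31.3%. The partners thus stood at or somewhat above the background, and farthest above it among the lower genes of P5. Under quantile normalization 8 partners were lower at P5, and the partner medians were -0.08, -0.34, and -0.05. Over all genes that scaling left 2367 lower at P5, in place of 3392. At all 3 ages 3 of the 32 were higher and 6 lower, against 5.85% and 13.1% of genes at 1 FPKM or more in a sorted fraction. Without P5 5 were higher, *Mpp7* and *Epb4.1l5* added, and 8 lower. The limma test with age as a block called 5 of the 32 higher and 11 lower, against 8.9% and 19.2% of all genes tested. *Llgl2*, a Lgl gene that opposes the apical complexes, was at 27.9, 53.7, and 69.9 FPKM in Cd73PC and at 1.92, 10.95, and 6.20 FPKM in Cd73NC. *Dlg4*, which encodes the synaptic scaffold PSD-95, was at 61.9, 109, and 151 FPKM in Cd73PC and at 26.8, 34.4, and 83.9 FPKM in Cd73NC. *Mpdz*, a multi-PDZ relative of *Inadl*, was at 13.8, 16.9, and 22.4 FPKM against 7.37, 7.50, and 7.97 FPKM. The relative of *Inadl* was therefore the more abundant of the 2 in each sorted library.

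The 6 partners lower at all 3 ages were *Lin7a*, *Mpp2*, *Pard6g*, *Tiam1*, *Llgl1*, and *Rac1*, with mean log2 ratios of -2.11, -1.86, -1.52, -1.50, -1.10, and -0.94. *Pard6g*, a paralog of *Pard6b*, was at 13.6, 8.16, and 7.27 FPKM in Cd73NC and at 4.195, 2.52, and 1.56 FPKM in Cd73PC, the opposite order to *Pard6b*. *Lin7a*, a small scaffold that binds Pals1, was at 7.81, 15.0, and 99.1 FPKM in Cd73NC and at 2.50, 2.65, and 12.6 FPKM in Cd73PC. The 8 bipolar markers summed to 12.3, 87.0, and 1509 FPKM in Cd73NC and to 38.7, 30.6, and 204 FPKM in Cd73PC, and their part in the *Lin7a* values was not tested. *Prkcz*, the other atypical kinase, had log2 ratios of -0.11, 1.44, and 0.91, and *Pard6a* -0.12, 0.52, and -0.02. Both are named after their values were seen, as paralogs of members. At P5 and P8 *Prkcz* was thus on the other side from *Prkci*.

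A second list held 18 genes of the outer limiting membrane and of adherens junctions. In Cd73PC 2 were higher and 7 lower at P2, none higher and 9 lower at P5, and 5 higher and 11 lower at P8, with median log2 ratios of -0.45, -0.65, and -0.85. Against the shares of genes at 1 FPKM or more given above, the lower junction genes were above the background at each age. The higher ones were above it at P8 alone, at 5 of 18 against 13.0%, with *Cadm1* (log2 ratio 1.81) and *Jam2* (1.42) the highest. At all 3 ages none was higher and 6 were lower, where 5.85% and 13.1% of such genes were in each direction. Of these 6, *Jam3*, *Ctnna2*, *Magi1*, *Cdh2*, and *Ctnnd1* had mean log2 ratios of -2.19, -2.01, -1.81, -1.70, and -1.07. The limma test called 9 of the 18 lower and 0 higher, against 19.2% and 8.9% of all genes tested. Without P5 the junction gene *Jam2* was past 1.5-fold higher. *Cdh2*, which encodes N-cadherin, the cadherin of this junction, was at 136, 115, and 83.7 FPKM in Cd73NC and at 47.8, 32.2, and 23.3 FPKM in Cd73PC. *Jam3*, a junctional adhesion molecule that binds Par3, was at 103, 70.9, and 46.1 FPKM against 33.7, 12.3, and 7.03 FPKM. The junction genes past 1.5-fold at all ages were thus lower in Cd73PC, as *Mpp3* and *Prkci* were.

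The 10 Müller glia markers summed to 1106, 1580, and 1320 FPKM in Cd73NC and to 500, 444, and 397 FPKM in Cd73PC, so that Cd73PC held 45.2%, 28.1%, and 30.1% of the level of Cd73NC. None of the 3 Cd73PC libraries was without RNA of these markers, and *Glul*, the glutamine synthetase of Müller glia, was at 112, 75.0, and 54.6 FPKM there. *Aqp4* and *Abca8a* of the same list were under 1 FPKM in each Cd73PC library. The 10 markers also summed to 640 FPKM in E15 and 742 FPKM in E18, so their RNA cannot be read as that of Müller glia alone. The cells it came from were not tested. Among the 10 markers *Clu* was higher in Cd73PC at each age and *Apoe* at P2, against the summed level. The 8 pigment epithelium markers, genes of another polarized epithelium, summed to 77.7, 76.7, and 129 FPKM in Cd73PC and to 3.75, 53.6, and 70.7 FPKM in Cd73NC, with 5, 1, and 4 of 8 past 1.5-fold higher and 0 lower. *Rpe65*, which defines that epithelium, was at 0 in both P2 fractions and at most 4.26 FPKM in a sorted library, while *Best1* and *Mitf* stayed under 1 FPKM in all 8 libraries. So the summed rod and pigment epithelium markers were higher in Cd73PC, and those of Müller glia and progenitors in Cd73NC. Those of bipolar cells were higher in Cd73PC at P2 and in Cd73NC at P5 and P8. The 6 cone markers summed to 133, 112, and 149 FPKM in Cd73PC and to 58.8, 148, and 121 FPKM in Cd73NC. Past 1.5-fold, 2, 0, and 2 of the cone markers were higher in Cd73PC and 0, 1, and 0 lower. The bipolar sum at P2 was mostly *Pcp2*, at 25.9 FPKM in Cd73PC and 2.62 FPKM in Cd73NC. Of the 8 bipolar markers, 3 were past 1.5-fold higher in Cd73PC at P2, 1 was lower (*Isl1*), and 4 were neither. The part of all these marker lists and of cell composition in the ratios of the members was not tested.

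**Figure D4:**
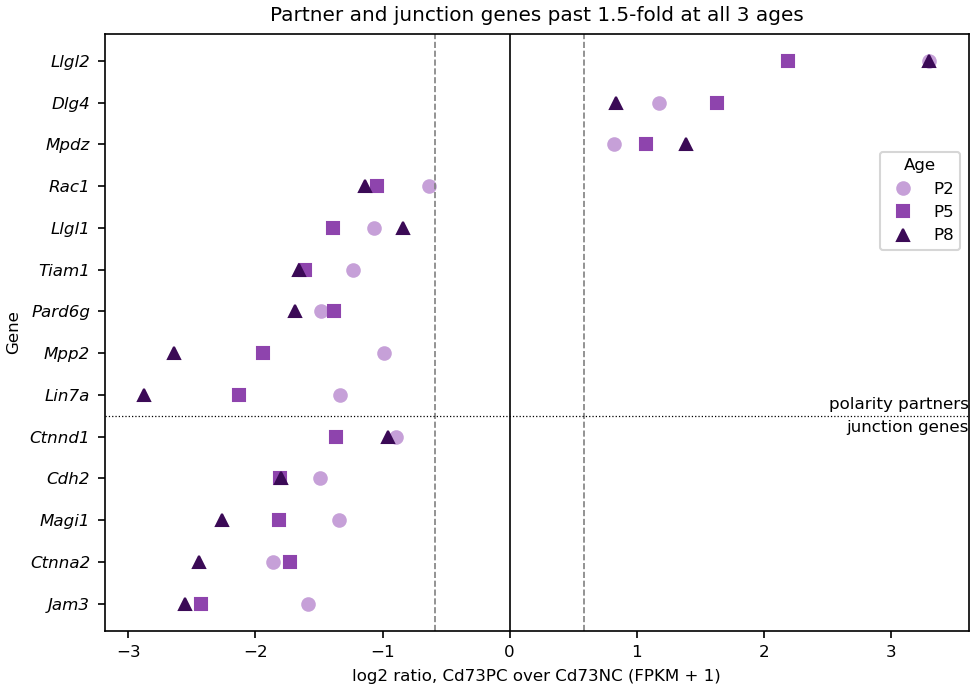
Log2 ratio of FPKM + 1, Cd73PC over Cd73NC (horizontal axis), for the 9 partner genes and 5 of the 6 junction genes past 1.5-fold in the same direction at all 3 ages, with circles for P2, squares for P5, and triangles for P8. Dashed lines stand at 1.5-fold and the dotted line parts the lists. *Llgl2*, *Dlg4*, and *Mpdz* lie to the right, and the other genes to the left.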

How the data were processed

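RNA from 8 retinal samples was sequenced, with 1 library per sample. Per the labels and the study's methods, the authors aligned single-end reads to mm9 with TopHat2 2.0.8b and made the deposited FPKM values with Cufflinks 2.1.1. FPKM is divided by length and mapped fragments, so reads of overlapping genes or of paralogs may be split by the estimation. The methods name no step that marks strand. Rows of small RNAs (797) were left out and rows of 234 repeated symbols were summed, which left 21827 genes. Failed estimates, 4 to 10 rows per library, were missing values, and no member had one. Between 1428 and 2170 rows per library lay outside their own bounds.

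Ratios used the threshold of the study, 1.5-fold, and a pseudocount of 1 that the study does not state. Between single libraries no test was run. Fractions were tested over the 6 sorted libraries with limma 3.58.1 in R 4.3.3, with age as a block. The genes tested were at 1 FPKM or more in a sorted library, and their errors were moderated toward a trend with level. Whole reads were recovered from FPKM steps for 3 members, with exact Poisson and binomial intervals, and for 7 no step was found, so their read depth is unknown. The row positions were checked against an NCBIM37 annotation, where 21297 of 21376 genes overlapped. Named partner and junction genes were those past 1.5-fold in 1 direction at all 3 ages, at most 6 per list and direction, and 1 junction gene is not reported here. Members and lists were chosen with earlier results of these data known. Alternatives were other pseudocounts, scalings, filters, and thresholds. Scripts (matplotlib 3.10.9, scipy 1.17.1, pandas 2.3.3, and numpy 2.4.6 in Python 3.11.15) were tested on simulated data.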

Additional observations from a re-analysis of the deposited data

Results flagged for a closer look

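From P5 to P8 the log2 ratio of FPKM + 1 of *Crb1* was 0.76 in Cd73PC and -0.61 in Cd73NC, opposite directions in the fractions, each with 1 library per age. The difference between these changes was not tested. No group had the 4 samples needed to look for a library far from the others.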

How the results depend on the processing

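Of 754 values recomputed under alternatives, 722 stayed within 1.5 times of the reported value, 32 moved further, and no ratio past 1.5-fold changed sign. Not all of them could move. Of the 722, 142 came from leaving the rows of a symbol unsummed, which cannot change a member, as each has a single row. Upper quartile scaling likewise cannot change a share of summed FPKM within a library. At a threshold of 2-fold, members higher in Cd73PC at P2 were 2, 1 member was lower at each age, and at all 3 ages 1 was higher and 1 lower. At that threshold partners higher were 3 at P2 and 4 at P8, partners lower 6 at P2 and 9 at P5, partners at all 3 ages 1 higher and 3 lower, and junction genes 2 higher and 7 lower at P8. Pairs of a member and a stage step past it were 5 higher and 1 lower, in place of 10 and 11. Quantile normalization left 1 member lower at P8, 1 member lower at all 3 ages, and 8 partners lower at P5. It shifted the median ratio of Cd73PC to Cd73NC by 0.10, 0.21, and 0.25 (log2) over P2, P5, and P8, and left out *Llgl1*, which failed in E15. With a pseudocount of 0, 17 pairs of a member and a step were lower, and the log2 ratios of *Crb3* were 1.03, 1.04, and -1.07, of *Mpp4* at P2 3.65, of *Mpp3* at P8 -3.26, and of *Ctnna2* at P5 -2.53. The last 2 were -3.16 and -2.41 with 0.1. Leaving out P5, chosen after seeing the data, gave 4 members higher and 2 lower, 5 partners higher, and 1 junction gene higher. The limma fit with age as a block, also added then, called 4 members higher and 2 lower, and 5 partners higher and 11 lower. The cause of these shifts was not tested. No replicate could be omitted because each group has 1 library, and the limma fit pairs the fractions by age. Depth limits *Crb3*, which had at most 13 reads.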
